A study of Mus musculus with 3 samples.

Results

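Mature microRNAs from the miR-126a, miR-221 and miR-222 hairpins, best known from vascular endothelium, were followed through 3 small RNA libraries of mouse liver. Members were all listed microRNAs whose names begin with miR-126- or miR-126a-, miR-221- or miR-222-, which gave both arms of 3 hairpins, 6 of the 1908 listed microRNAs. The 5p arm is the strand cut from the 5′ side of a hairpin and the 3p arm the strand from its 3′ side. All 6 members were detected in every library.

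All mice were male, of the inbred strain C57BL/6J and aged 8 to 10 weeks. All mice had a laparotomy, followed in Sham mice by a wait of 90 min. In the warm ischemia (WI) group, the hepatic artery, portal vein and bile duct to the left and median lobes were occluded for 90 min. In the ischemia-reperfusion (IR) group, the same occlusion of 90 min was followed by 120 min of restored flow. IR livers were thus taken later after surgery than the others, so reperfusion and time since surgery cannot be told apart. Each group had 6 mice and 1 library, and the sources used here do not say how many of these mice contributed RNA. The comparisons ask how these microRNAs stand after ischemia alone, after reperfusion against ischemia, and after both against the operated control. With 1 library per group, every p-value below sets 2 libraries against each other, not 2 conditions, and there is no check by replicates.

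MicroRNAs repress messenger RNAs by base pairing, mainly through the seed, bases 2 to 8 from the 5′ end. MiR-126 is made from an intron of Egfl7, a gene of endothelial cells, and its 3p arm is known to support signalling by vascular endothelial growth factor through repression of Spred1 and Pik3r2. It is also found in platelets and blood progenitor cells. MiR-221 and miR-222 are made side by side on the X chromosome, share a seed and are known to repress the growth factor receptor Kit and the cell cycle inhibitor p27 (Cdkn1b) in endothelium and other cells.

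The mature sequences of the 4 members found in the RefSeq table of GRCm38.p6 are shown because the seed groups them, with the seed in capitals. MiR-126a-5p and miR-222-5p are named only.

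miR-126a-3p: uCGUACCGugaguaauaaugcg

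miR-221-3p: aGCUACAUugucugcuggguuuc

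miR-222-3p: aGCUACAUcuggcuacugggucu

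miR-221-5p: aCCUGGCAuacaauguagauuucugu

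MiR-221-3p and miR-222-3p began with the same 8 bases and had the seed GCUACAU in common. Compared without gaps or offset they were identical at 11 of 23 positions, far more differences than the 1 mismatch allowed when the reads were aligned. That count misses a likeness of their 3′ parts, which match at most positions once shifted by 1 base. Among 1603 listed microRNAs with a sequence, 1 other had this seed, miR-1928, shown because it is the remaining member of the seed group.

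miR-1928: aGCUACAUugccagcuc

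MiR-1928 had 0 reads in each library. The upper limit of its 95% Poisson interval was 0.932 counts per 1000000 (CPM) for Sham, 0.758 for WI and 0.965 for IR. Among microRNAs with a sequence, the reads with this seed were those of miR-221-3p and miR-222-3p. The seeds of miR-126a-3p (CGUACCG) and miR-221-5p (CCUGGCA) were found in no other listed microRNA with a sequence.

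In mm9, the Mir126 hairpin lay on the plus strand of chromosome 2 (26446877 to 26446949), inside Egfl7 (26435534 to 26448640). It fell in an intron of 10 of the 11 Egfl7 transcripts that span it, in an exon of 1 transcript with a retained intron, and in an intron of the overlapping gene model Gm20532. MiR-126a-3p itself covered 26446922 to 26446943. The Mir221 hairpin (18723420 to 18723514) and the Mir222 hairpin (18724019 to 18724097) lay on the minus strand of chromosome X, 504 bp apart and in no other annotated gene. Their nearest other gene, Gm14636, was 10593 bp from Mir221 and 10010 bp from Mir222. The opposite strand of the Mir126 locus gives miR-126b, whose 5p arm is complementary to miR-126a-3p over 19 bases.

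miR-126b-5p: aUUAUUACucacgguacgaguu

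miR-126b-5p had 0, 1 and 1 reads and miR-126b-3p had 1, 0 and 0 reads in Sham, WI and IR. Reads of this locus were thus almost entirely those of the miR-126a strand.

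MicroRNA reads numbered 3844133 in the Sham library, 5064014 in the WI library and 3784539 in the IR library. Between 653 and 682 microRNAs were detected in each. The hepatocyte microRNA miR-192-5p had 243175, 258042 and 236770 CPM in Sham, WI and IR. Of the 3 striated muscle microRNAs, miR-1a-3p had 0, 1 and 6 reads, miR-206-3p 0, 0 and 1 reads, and miR-133a-3p 27, 115 and 280 reads. The tissue was not sorted, so the endothelial origin of the members was not measured. In such bulk RNA, fewer cells of a type and less RNA per cell cannot be told apart.

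The members together took 78503 reads of the Sham library (2.04%), 113828 of the WI library (2.25%) and 69355 of the IR library (1.83%). MiR-126a-5p was by far the most abundant. Its reads numbered 64593 for Sham, 96481 for WI and 55765 for IR. After scaling with the trimmed mean of M-values (TMM), its level was 16311 CPM (95% Poisson interval 16186 to 16437) for Sham, 19832 CPM (19707 to 19957) for WI and 14583 CPM (14462 to 14704) for IR. WI was highest and IR lowest, with no overlap of the intervals. The intervals cover counting error only, and not variation between animals or between libraries of a group. No molecular identifiers were used, so the intervals do not allow for reads copied in amplification either. MiR-126a-5p ranked 11th, 11th and 12th among all microRNAs, next to the hepatocyte microRNA miR-122-5p at 12th, 12th and 11th.

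MiR-126a-3p, the arm known for its role in vessel growth, had 11704, 14357 and 11416 reads in Sham, WI and IR. Its levels were 2956 CPM (2902 to 3010), 2951 CPM (2903 to 3000) and 2985 CPM (2931 to 3041). These intervals overlapped in all pairs, and it ranked 33rd in each library.

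MiR-221-3p, the main arm of its hairpin, had 1544, 2051 and 1504 reads. This corresponded to 390 CPM (371 to 410) for Sham, 422 CPM (404 to 440) for WI and 393 CPM (374 to 414) for IR. WI was highest, with intervals that overlapped those of the other libraries. MiR-222-3p had 490, 736 and 537 reads, or 124 CPM (113 to 135), 151 CPM (141 to 163) and 140 CPM (129 to 153). For miR-222-3p the Sham and WI intervals were apart, and IR lay between and overlapped both.

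The 5p arms of these hairpins, the strands less often kept, were rarer. MiR-221-5p had 156, 171 and 119 reads, or 39.4 CPM (33.5 to 46.1), 35.1 CPM (30.1 to 40.8) and 31.1 CPM (25.8 to 37.2). MiR-222-5p had 16, 32 and 14 reads, or 4.04 CPM (2.31 to 6.56), 6.58 CPM (4.5 to 9.29) and 3.66 CPM (2.0 to 6.14). All intervals overlapped within each of these arms.

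The order of the levels, miR-126a-5p, miR-126a-3p, miR-221-3p, miR-222-3p, miR-221-5p and miR-222-5p, was the same in the 3 libraries. Neighbours in this order had intervals that did not overlap in any library. The smallest step was the 2.79-fold step from miR-221-3p to miR-222-3p in WI and the largest the 9.75-fold step from miR-221-5p to miR-222-5p in Sham. Read counts of mature microRNAs do not scale with length, but sequences differ in how readily they enter a library and are amplified, so the order is one of reads and not of molecules.

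**Figure D1:**
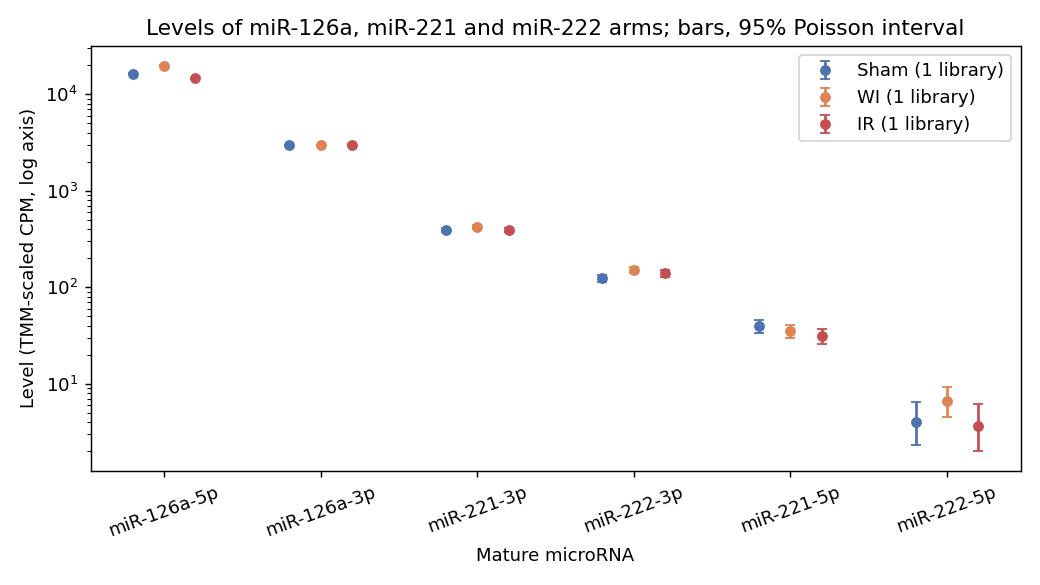
Levels of the 6 members in the Sham, WI and IR libraries. The y axis is TMM-scaled CPM on a log axis, points are single libraries and bars are 95% Poisson intervals of the reads. From miR-126a-5p (14583 to 19832 CPM) to miR-222-5p (3.66 to 6.58 CPM), the steps between members are far larger than the differences between libraries within a member.

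After ischemia alone, no member passed both criteria of the study, a fold change above 1.5 and an unadjusted Fisher's exact p under 0.01. Over all microRNAs tested, 1.92% passed both in WI against Sham (15 of 782). MiR-126a-5p and miR-222-3p were higher in WI by more than counting error, at 1.22 times their Sham levels. The log2 fold change of miR-126a-5p was 0.28 (SE 0.0073), with Fisher's exact p below 1e-300 unadjusted and adjusted. That of miR-222-3p was 0.29 (SE 0.084, Fisher's exact p = 0.000565, Benjamini-Hochberg adjusted p = 0.00559). These were 2 of 6 members at p under 0.01, where 12.3% of all microRNAs tested reached that p. This share, like those at the same p below, includes microRNAs with few reads and was not matched for depth. Which members reached it depended on the scaling. MiR-222-3p did not with library totals (Fisher's exact p = 0.0245), without the 10 most abundant in the totals (Fisher's exact p = 0.0143) or with miR-122-5p as the reference (Fisher's exact p = 0.663). MiR-126a-5p did under each of 6 ways of scaling the libraries.

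With TMM the other arms did not reach that p in WI against Sham. MiR-126a-3p gave a log2 fold change of -0.0022 (SE 0.018, Fisher's exact p = 0.906), with a 95% counting interval from -0.037 to 0.033. MiR-221-3p, with the same seed as miR-222-3p, gave 0.11 (SE 0.049, Fisher's exact p = 0.0206, adjusted p = 0.145). The difference between these 2 values was not tested. MiR-221-5p gave -0.16 (SE 0.16, Fisher's exact p = 0.317). MiR-222-5p was the only member past the fold of 1.5 (0.69 on the log2 scale, SE 0.44), but on 16 and 32 reads its Fisher's exact p was 0.113. Among microRNAs with at least 50 reads, 7.14% were past that fold in WI against Sham. MiR-222-5p itself had fewer reads than that.

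From WI to IR, again no member passed both criteria with TMM, while 9.25% of all microRNAs tested did (73 of 789). MiR-126a-5p was 1.36-fold lower in IR, or -0.44 on the log2 scale (SE 0.0077), with Fisher's exact p below 1e-300. With TMM it was the only 1 of the 6 members at p under 0.01, against 18.9% of all microRNAs tested. Scaling by the reads aligned to the genome, in place of TMM, gave -0.77, past the fold threshold, so that miR-126a-5p was then called lower. That scaling moved the median log2 fold change of all microRNAs to -0.32, so that miR-126a-5p still lay below it.

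MiR-126a-3p gave 0.017 from WI to IR on the log2 scale (SE 0.018, Fisher's exact p = 0.359), with a counting interval from -0.019 to 0.052. The arms of 1 hairpin thus differed in this comparison, which is tested below by their shares. MiR-221-3p gave -0.10 (SE 0.049, Fisher's exact p = 0.0409, adjusted p = 0.178) and miR-222-3p gave -0.11 (SE 0.082, Fisher's exact p = 0.194). The major arms of the X-linked pair were thus nearly equal in their difference. MiR-221-5p gave -0.18 (SE 0.17, Fisher's exact p = 0.315). MiR-222-5p was 1.78-fold lower in IR, -0.83 on the log2 scale (SE 0.46), on 32 and 14 reads (Fisher's exact p = 0.0743). A fold past 1.5 was found for 23.2% of microRNAs with at least 50 reads in this comparison, a set that miR-222-5p did not enter.

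Between IR and Sham, no member passed both criteria, against 7.11% of all microRNAs tested (55 of 774). MiR-126a-5p was 1.12-fold lower in IR, -0.16 on the log2 scale (SE 0.0083, Fisher's exact p = 4.13e-85). With TMM no other member reached p under 0.01, so that 1 of 6 did, where 16.0% of all microRNAs tested did. MiR-222-3p gave 0.18 (SE 0.090, Fisher's exact p = 0.0457, adjusted p = 0.218) and miR-221-5p gave -0.34 (SE 0.18, Fisher's exact p = 0.0537, adjusted p = 0.247). In WI against Sham, which shares the Sham library, they gave 0.29 and -0.16. MiR-126a-3p (0.014, SE 0.019), miR-221-3p (0.013, SE 0.052) and miR-222-5p (-0.14, SE 0.53) did not differ beyond counting error. None of the members was past the fold of 1.5, against 18.1% of microRNAs with at least 50 reads, which again leave out miR-222-5p.

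As a group, 4 of 6 members were higher in WI than in Sham, 1 of 6 was higher in IR than in WI, and 3 of 6 were higher in IR than in Sham, counts in which miR-126a-3p, miR-221-3p, miR-222-3p and miR-221-5p each change sides in some comparison under another scaling. Their median log2 fold changes were 0.20, -0.14 and -0.06 in that order, beside 0.05, -0.01 and 0.04 over all microRNAs tested. Among microRNAs with at least 50 reads, the median size of the log2 fold change, sign aside, was 0.18, 0.21 and 0.23. MiR-126a-5p exceeded that size in WI against Sham and IR against WI, as did miR-222-5p, though on few reads. MiR-222-3p exceeded it in WI against Sham and miR-221-5p in IR against Sham. MiR-126a-3p and miR-221-3p stayed below it in all 3 comparisons. The comparisons share libraries and are not independent of one another.

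**Figure D2:**
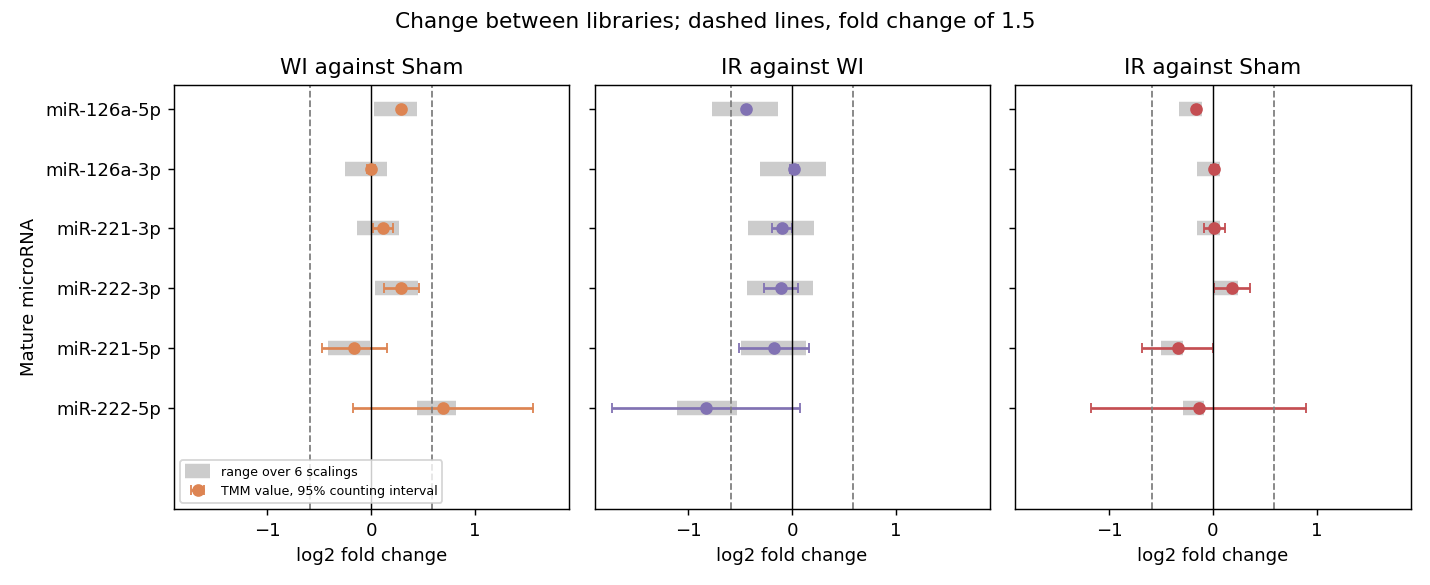
Log2 fold change of each member between libraries, with 1 panel per comparison. Points are TMM values with 95% counting intervals, grey bands span 6 ways of scaling the libraries, and dashed lines mark a fold change of 1.5. MiR-126a-5p (0.28, -0.44 and -0.16) keeps its side of 0 across the grey band in every panel, while the band of miR-126a-3p spans 0 in each.

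**Figure D3:**
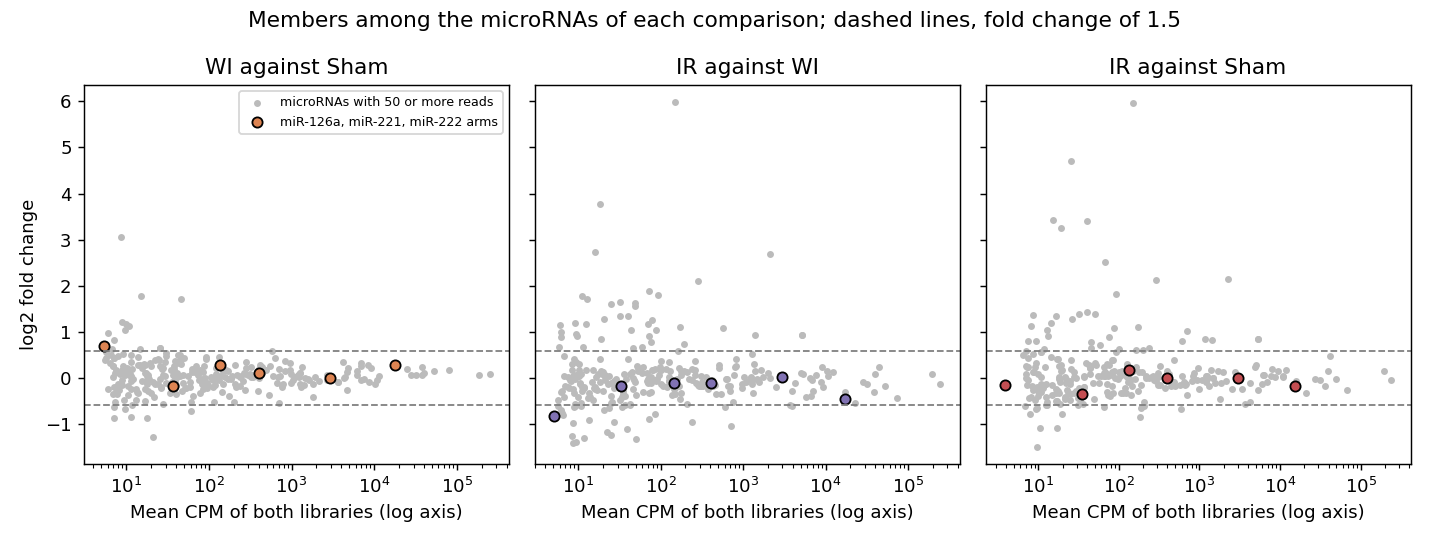
Members (outlined) among all microRNAs that had at least 50 reads in the compared pair of libraries (grey). The x axis is the mean CPM of both libraries on a log axis and the y axis the log2 fold change. The members run from rare to abundant, with a few microRNAs above miR-126a-5p, and lie within the dashed lines of a 1.5-fold change, except miR-222-5p at the left in WI against Sham (0.69) and IR against WI (-0.83).

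Directions of small differences depend on how libraries are scaled, so 6 scalings were compared. MiR-126a-5p kept its sign in all 3 comparisons, with ranges of 0.03 to 0.44 from Sham to WI, -0.77 to -0.14 from WI to IR and -0.33 to -0.11 from Sham to IR on the log2 scale. MiR-222-3p was higher than in Sham under each scaling, by 0.04 to 0.45 in WI and by 0.01 to 0.24 in IR. MiR-126a-3p ranged from -0.25 to 0.15 between Sham and WI and from -0.31 to 0.32 between WI and IR, so its direction was not determined. MiR-221-3p also took both signs in every comparison. The number of the 6 members at Fisher's exact p under 0.01 ran from 2 to 4 over these scalings from Sham to WI, from 1 to 5 from WI to IR and from 1 to 4 from Sham to IR. With an assumed coefficient of variation of 0.1 between animals it was 0 in each by edgeR's exact test. The widest bounds came from the aligned read totals and from miR-122-5p as the reference, which moved the median of all microRNAs to 0.20 and -0.20 from Sham to WI, to -0.32 and 0.29 from WI to IR, and to -0.09 and 0.08 from Sham to IR.

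Shares of the arms of a hairpin need no scaling between libraries. The 5p arm took 84.7% (95% Wilson interval 84.4 to 84.9) of the reads of miR-126a for Sham, 87.0% (86.8 to 87.2) for WI and 83.0% (82.7 to 83.3) for IR. WI was highest and IR lowest, and no intervals overlapped. As a ratio, there were 5.52 reads of the 5p arm per read of the 3p arm (5.41 to 5.63) for Sham, 6.72 (6.60 to 6.84) for WI and 4.88 (4.79 to 4.98) for IR. After all libraries were thinned to the smallest, the ratios were 5.52, 6.67 and 4.88.

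The share of miR-126a-5p rose from Sham to WI by 0.28 in log2 odds (SE 0.019, Fisher's exact test, adjusted p = 5.07e-46). An adjusted p under 0.05 was found for 6.10% of hairpins in that comparison (10 of 164). From WI to IR its log2 odds fell by 0.46 (SE 0.020, Fisher's exact test, adjusted p = 8.65e-118), where 7.78% of hairpins passed (13 of 167). Its share in IR was also below that in Sham, with a log2 odds change of -0.18 (SE 0.021, Fisher's exact test, adjusted p = 3.57e-15), where 5.45% of hairpins passed (9 of 165). The test compares 2 libraries here too, and its small p-values come with the many reads of this hairpin. Of the hairpins with at least 100 reads in each arm, 18 of 53 had a larger change of odds in WI against Sham, 5 of 48 in IR against WI and 23 of 46 in IR against Sham. By this rank, the change from WI to IR was among the larger ones, and the other changes were not. The rank was not matched for depth, and some of the larger changes had a far larger SE than that of miR-126a.

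Among those hairpins the 5p share moved in both directions. It was higher in 29 and lower in 24 in WI against Sham, higher in 21 and lower in 27 in IR against WI, and higher in 23 and lower in 23 in IR against Sham.

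MiR-221 and miR-222 were read mainly from the 3p arm. The 5p share of miR-221 was 9.18% (7.89 to 10.6) for Sham, 7.70% (6.66 to 8.88) for WI and 7.33% (6.16 to 8.70) for IR. That of miR-222 was 3.16% (1.96 to 5.07), 4.17% (2.97 to 5.82) and 2.54% (1.52 to 4.22). The intervals overlapped within each hairpin. No comparison of either passed an adjusted p of 0.05, and the lowest was that of miR-221 in IR against Sham (log2 odds change -0.35, SE 0.18, Fisher's exact test, adjusted p = 0.374). In each library the 5p share of miR-221 was above that of miR-222, with intervals apart.

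**Figure D4:**
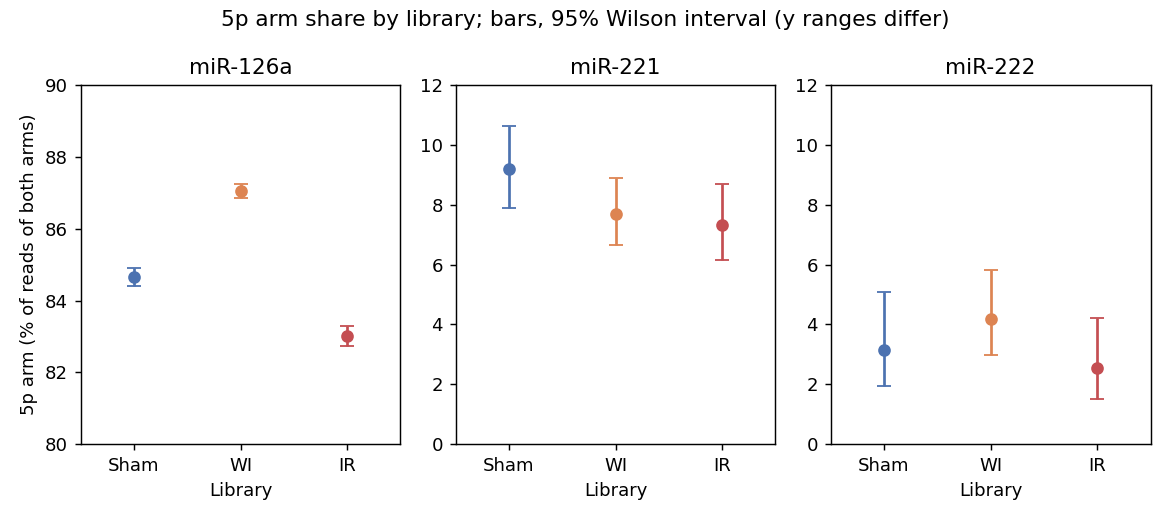
Share of the 5p arm among the reads of both arms, in percent, in the Sham, WI and IR libraries. Points are single libraries, bars are 95% Wilson intervals, and the y axis of miR-126a runs from 80 to 90 while the others start at 0. The miR-126a share is 84.7%, 87.0% and 83.0% with bars apart, and the bars of miR-221 and of miR-222 overlap among libraries.

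Both arms summed, miR-126a stood at 19267 CPM for Sham, 22783 CPM for WI and 17568 CPM for IR. The 3p arm was nearly constant on this scale, so the difference in the sum lay in the 5p arm. MiR-221 summed to 429, 457 and 424 CPM and miR-222 to 128, 158 and 144 CPM.

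Within a library, miR-221-3p had 3.15 reads per read of miR-222-3p (2.85 to 3.49) for Sham, 2.79 (2.56 to 3.03) for WI and 2.80 (2.54 to 3.09) for IR. Sham was highest, and the intervals overlapped. The pair from 1 locus thus kept a ratio near 3 in the 3 libraries. The 5p arms gave 9.75 (5.83 to 16.3), 5.34 (3.66 to 7.79) and 8.50 (4.89 to 14.8), with wide intervals. MiR-126a-3p had 23.9 reads per read of miR-222-3p (21.8 to 26.1) for Sham, 19.5 (18.1 to 21.0) for WI and 21.3 (19.5 to 23.2) for IR. Here the Sham and WI intervals were apart. Per read of miR-221-3p, miR-126a-3p had 7.58, 7.0 and 7.59 reads, with overlapping intervals.

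Set against miR-122-5p, the best known microRNA of hepatocytes, miR-126a-5p had 1.02 reads per read (1.01 to 1.03) for Sham, 1.04 (1.03 to 1.05) for WI and 0.949 (0.938 to 0.960) for IR. Both microRNAs were thus nearly equal in reads in each library, which does not make them equal in molecules. MiR-122-5p made up 1.64%, 1.83% and 1.55% of the reads in Sham, WI and IR, far less than the hepatocyte microRNA miR-192-5p. MiR-122-5p itself had 15960, 18999 and 15364 CPM, with log2 fold changes of 0.25 (Sham to WI), -0.31 (WI to IR) and -0.05 (Sham to IR). It had the same sign as miR-126a-5p in each comparison. MiR-126a-3p had 0.185, 0.155 and 0.194 reads per read of miR-122-5p, lowest in WI. Per 1000 reads of miR-122-5p there were 24.4, 22.2 and 25.6 of miR-221-3p, 7.75, 7.96 and 9.14 of miR-222-3p, 2.47, 1.85 and 2.03 of miR-221-5p, and 0.253, 0.346 and 0.238 of miR-222-5p.

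The microRNAs nearest in pattern were sought by the distance between log2 levels centred on their mean over the 3 libraries, among 316 other microRNAs with at least 50 reads. MiR-126a-5p was nearest to miR-187-3p (distance 0.018, with 49, 74 and 43 reads), miR-350-3p (0.028) and miR-3082-3p (0.034), all of them rare. Only 4.75% of the microRNAs compared lay within 0.1 of it. MiR-222-3p had 5.06% within 0.1, with miR-30e-5p (0.015), miR-140-5p (0.031) and miR-185-5p (0.032) nearest.

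The other major arms had patterns held by more microRNAs. For miR-126a-3p 15.2% lay within 0.1, and miR-652-3p (0.016), miR-146a-5p (0.017) and miR-148b-3p (0.018) were nearest. For miR-221-3p 13.3% did, with miR-1843a-5p (0.0065), let-7b-5p (0.016) and let-7j (0.017) nearest. With 3 libraries these distances are descriptions. For neighbours with few reads, such as those of miR-126a-5p, they were smaller than counting error. The shares within 0.1 take no account of that error. MiR-221-3p and miR-222-3p, which share a seed, were not each other's nearest.

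Other microRNAs known from vessels were read from a list of 28, all found in the files. In WI against Sham 1 was called higher and 0 lower, in IR against WI 1 higher and 2 lower, and in IR against Sham 3 of 27 tested higher and 0 lower. Over all microRNAs tested, 1.92%, 9.25% and 7.11% were called in that order, and the list's few calls lay near that background. The median log2 fold changes of the list were 0.05, 0.04 and 0.11, beside 0.05, -0.01 and 0.04 over all microRNAs tested. MiR-10b-5p, from a Hox gene cluster and known to promote vessel sprouting, had 463, 701 and 942 CPM in Sham, WI and IR. It rose in WI by 0.60 on the log2 scale (SE 0.042) and was higher in IR than in Sham by 1.02 (SE 0.041). MiR-132-3p, an activity-induced microRNA that acts on growing vessels, had 28.3, 24.9 and 74.0 CPM and rose from WI to IR by 1.57 (SE 0.16). MiR-23b-3p, from a cluster with miR-27b and miR-24, had 839, 1053 and 1516 CPM and was called in IR against Sham (0.85, SE 0.031). These microRNAs, named because they were called higher, stood highest in IR, where miR-126a-5p stood lowest. Others on the list had the order of miR-126a-5p, among them let-7f-5p (23485, 27048 and 18687 CPM).

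Lower calls in the list were miR-34a-5p, induced by p53, with 135, 214 and 112 reads (log2 fold change from WI to IR -0.59, SE 0.17), and miR-218-5p, from introns of the Slit genes, with 15 reads in WI and 1 in IR. MiR-10a-5p, the most abundant on the list, had 37424, 39085 and 41447 CPM and was not called.

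Markers of other cell types were summed in each library. The 3 hepatocyte microRNAs came to 260230, 278163 and 253201 CPM in Sham, WI and IR, with none called. With TMM their sum was highest in WI and lowest in IR, the order seen for miR-126a-5p. Most of it was miR-192-5p, and as a share of library totals the sum was slightly higher in Sham than in WI. The 5 stromal microRNAs came to 39670, 43072 and 35224 CPM, also highest in WI and lowest in IR, with none called. Most of that sum was miR-143-3p (38597, 42013 and 34215 CPM), and the order was not that of every stromal microRNA. MiR-199a-3p shared it (685, 696 and 620 CPM), while miR-145a-5p was highest in Sham (133, 130 and 126 CPM). MiR-199a-5p (215, 198 and 217 CPM) and miR-214-3p (40.2, 34.7 and 46.5 CPM) were lowest in WI and highest in IR. The 4 leukocyte microRNAs came to 3074, 3037 and 2792 CPM, and most of that sum was miR-142-5p (2735, 2672 and 2342 CPM). Among them, miR-223-3p of myeloid cells was called higher in IR against WI (1.12 on the log2 scale, SE 0.079) and against Sham (1.10, SE 0.084). The others were not called. In IR against WI, miR-142-5p (-0.19), miR-142-3p (-0.36) and miR-150-5p (-0.13) were lower. Against Sham they gave -0.22, 0.11 and -0.32. The 5 epithelial microRNAs stayed between 475 and 491 CPM, and 1 of them, miR-200c-3p, was called higher in IR against WI on 18 and 32 reads.

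Red cell markers and a muscle marker stood higher in IR. The 4 erythroid microRNAs came to 5055, 4781 and 9020 CPM, and 3 of 4 were called higher in IR against WI and 4 of 4 in IR against Sham, beside 9.25% and 7.11% called in either direction over all microRNAs tested. MiR-486-5p went from 3585 CPM in WI to 6863 in IR and miR-451a from 959 to 1838. The muscle microRNA miR-133a-3p, at 27, 115 and 280 reads, was called higher in each comparison. The part of these other cell types in the levels of miR-126a, miR-221 and miR-222 was not tested.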

How the data were processed

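Small RNA of mouse liver was sequenced in 3 libraries (Sham, WI and IR), grouped by sample title. Deposited were raw read counts of each mature microRNA, without normalisation. The authors kept reads of 15 to 30 bases and aligned them with Bowtie 0.12.7, at up to 1 mismatch and 5 positions. Their methods name mm9, the submitters' processing notes mm10. They sorted reads with HTSeq and counted microRNAs with miRDeep2. No molecular identifiers were used.

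Counts were scaled by TMM factors of 1.03 (Sham), 0.961 (WI) and 1.01 (IR) from edgeR 4.0.16 in R 4.3.3, as CPM of the scaled totals. These totals were microRNA reads, while the study's formula uses each sample's mapped reads. Fewer microRNAs were called here than the study reports, both in WI and in IR against Sham. The alternative with genome-aligned totals used mapped reads, without a TMM factor. The floor of 3 reads was 0.758, 0.617 and 0.785 CPM. Log2 fold changes used log2(CPM + 0.1), which understates changes of rare microRNAs, with SE from the reads alone. Every microRNA with a read in either library was tested by a two-sided Fisher's exact test (scipy 1.17.1) and called at a fold above 1.5 and unadjusted p under 0.01, as the methods of the study state. Benjamini-Hochberg adjustment ran over all microRNAs tested. The 5p shares were tested likewise over all hairpins with at least 50 reads. Shares carry Wilson and levels Poisson 95% intervals, and intervals of ratios came from the reads on a log scale. These cover counting error only. Procedures were tested on simulated data.

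Named were all 6 members, miR-126b, microRNAs with the same seed as a major arm, miR-122-5p, the 3 nearest patterns, and called (or the most abundant) microRNAs of the vessel and cell type lists. Values of miR-192-5p, miR-1a-3p, miR-206-3p, let-7f-5p, miR-142-5p, miR-142-3p and miR-150-5p were added after being seen. So were those of miR-145a-5p, miR-199a-5p, miR-199a-3p and miR-214-3p. The members and lists were chosen with earlier results of these data known. Hairpins were placed in mm9 (NCBIM37) by the GENCODE vM1 annotation, and their sequence there was the same as in RefSeq. Alternatives changed the scaling, pseudocount, read minimum, depth, thresholds and an assumed variation between animals (edgeR's exact test; DESeq2 1.42.0 gave size factors).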

Additional observations from a re-analysis of the deposited data

How the results depend on the processing

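Of 13 alternatives, 6 left the members' fold changes as they were by construction. Of 126 member values recomputed under the other 7, 111 kept their direction and call. MiR-126a-5p in IR against WI became a call with aligned read totals (-0.77), so that 1 member was called there. Signs changed for 14 values, none of them called. In IR against Sham, miR-126a-3p became -0.012 (DESeq2), -0.013 (library totals), -0.050 (without the 10 most abundant) and -0.15 (aligned totals), and miR-221-3p became -0.014, -0.015, -0.052 and -0.16 in that order. With aligned totals, miR-126a-3p became 0.15 from Sham to WI and -0.31 from WI to IR. With miR-122-5p as reference, miR-221-3p became -0.14 in WI against Sham, and miR-221-3p, miR-222-3p and miR-221-5p became 0.21, 0.20 and 0.13 in IR against WI. Over all microRNAs, 25 (Sham to WI) and 111 (WI to IR) were called with aligned totals, and 29 in WI against Sham with miR-122-5p. At a fold of 2, 9 (Sham to WI) and 35 (Sham to IR) were called. An assumed coefficient of variation of 0.2 between animals left 4 (Sham to WI), 33 (WI to IR) and 24 (Sham to IR) calls, and one of 0.4 left 1, 6 and 10. With 0.1, miR-126a-5p in IR against WI had an edgeR exact test p of 0.0304 and in WI against Sham 0.168. Higher and lower calls in WI against Sham numbered 11 and 4 with TMM, 10 and 6 with DESeq2, 7 and 10 with library totals, 8 and 9 once the 10 most abundant left the totals, 23 and 2 with aligned totals and 6 and 23 with miR-122-5p. In IR against WI they were 49 and 24, but 38 and 73 with aligned totals and 66 and 12 with miR-122-5p, and in IR against Sham 44 and 11, but 35 and 27 with aligned totals. The 5p shares and ratios moved by less than their intervals after thinning. No paired analysis was possible because each group had 1 library, and leaving one out was not possible for the same reason. MiR-222-5p, at 14 to 32 reads, could show only large differences.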
